A study of Mus musculus with 24 samples.

Results

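The 32 mouse genes described here encode histone lysine methyltransferases and their SET or MYND domain relatives. They were taken from a given list, which was drawn up with earlier results of these data known. They are 32 of 21887 protein-coding genes in the RefSeq annotation used (assembly GRCm38.p6, equal to mm10 on the main chromosomes). A gene was called marked in a library when at least 1 bp of its gene body, introns included, lay under a peak of N6-methyladenosine (m6A). The list held 30 genes with a peak in at least 1 library, and 9903 protein-coding genes had one.

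Histone lysine methyltransferases transfer methyl groups to lysines of histones, most through a SET domain and DOT1L without one. Methylation of H3K4 is typical of promoters and enhancers, H3K36 of transcribed gene bodies, H3K79 of active genes, and H3K9 and H4K20 of silenced or compacted chromatin. Oocytes build up these enzymes and their transcripts before fertilization, and early embryos reset the marks as transcription passes from maternal stores to the embryonic genome. The RNA mark m6A is a methyl group on adenosine that influences how long a transcript persists and how it is translated, and the peaks described here are stretches of RNA enriched by an antibody against it.

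The study pooled C57BL/6N material from superovulated females of 8 weeks, with no transgene or other agent named beyond the hormones and, for oocytes at the germinal vesicle (GV) stage, an inhibitor that holds meiotic arrest. The 12 immunoprecipitated libraries cover 6 stages with 2 replicates each, and the 12 inputs were not analysed here. GV oocytes were of the surrounded-nucleolus type and came in pools of 49. Metaphase II (MII) oocytes were collected 14 h after chorionic gonadotropin in pools of 100 and 110. Embryos came from matings and were flushed as zygotes at 27 to 28 h, 2-cell embryos at 39 to 43 h, 8-cell embryos at 68 to 70 h and blastocysts at 92 to 94 h. Their pools held 100 embryos, except 1 of the 8-cell pools, which held 51. The GV, MII and zygote libraries are called the maternal phase and the 2-cell, 8-cell and blastocyst libraries the embryonic phase, 6 libraries each. The 2 replicates of a stage share that stage and so do not stand for a phase independently, and nothing in the labels ties the pools to separate litters, so each p-value describes only the spread among these 12 libraries.

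The peak lists held 6914 (zygote replicate 1) to 11959 peaks (GV replicate 2), and no read counts were given, so sequencing depth is unknown. The oocyte markers Mos, Bmp15, Gdf9 and Nlrp5 were marked in all 6 maternal libraries and in 0, 1, 2 and 2 embryonic ones, and 4 of the 8 oocyte markers (Zp1, Zp2, Zp3 and Oosp1) had no peak. Of 7 blastocyst markers, 4 or 5 were marked in the blastocyst libraries, 3 or 4 in the 8-cell libraries and 0 elsewhere, while Krt8 and Krt18 had none. Of the 5 markers of 2-cell embryos in the table, 4 were marked in each 2-cell library, 2 and 4 in the 8-cell libraries and 0 in blastocysts, and Zscan4d was also marked in 3 maternal libraries. Of 9 cumulus and granulosa cell markers, 1 or 2 were marked in each GV and MII library and 0 in every later one, and 6 had no peak. Of 5 sperm markers, Prm2 was marked in all 6 maternal libraries, oocytes included, and the other 4 in none. The part these markers' cells play in the results was not tested.

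Fewest methyltransferase genes were marked in zygotes and most in blastocysts. The number marked was 21 and 21 of 32 in the GV libraries, 16 and 18 in MII, 12 and 15 in zygotes, 15 and 17 in 2-cell embryos, 21 and 24 in 8-cell embryos, and 28 and 25 in blastocysts. GV and 8-cell libraries lay near each other, and the phases overlapped. The mean was 17.2 ± 3.54 (SD, n = 6) in the maternal phase and 21.7 ± 4.97 (SD, n = 6) in the embryonic phase. With peaks at or above the median score of all lists alone, the means were 13.7 and 14.5. Among the 9903 genes with any peak, the share marked per library ran from 30.5% (zygote replicate 1) to 52.9% (GV replicate 2). The methyltransferase genes exceeded that share in each of the 12 libraries, from 37.5% in zygote replicate 1 to 87.5% in blastocyst replicate 1. The bases differ, since 2 of the 32 genes had no peak at all. The second blastocyst list was short, with 7946 peaks, and still marked 25 of the 32 genes.

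**Figure D1:**
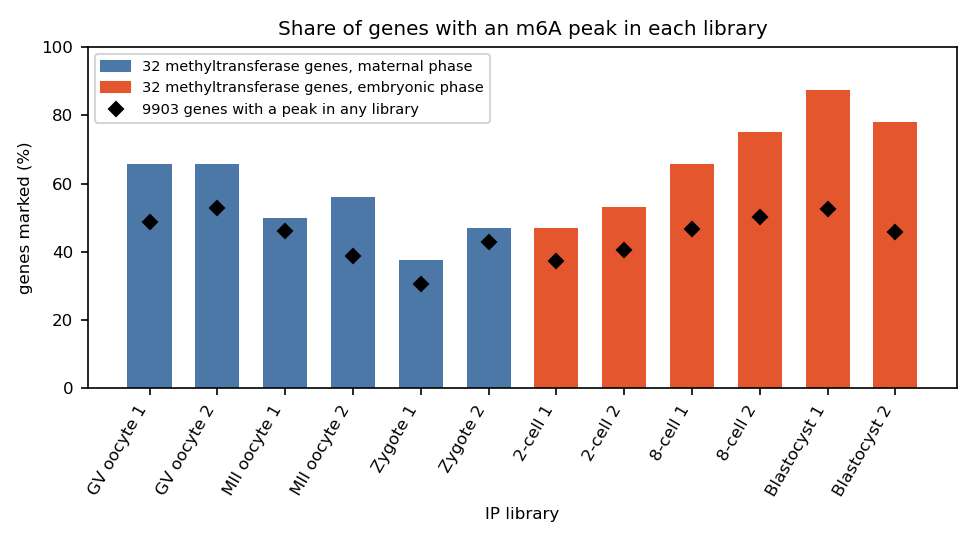
Bars show the percentage of the 32 methyltransferase genes with at least 1 m6A peak in each of the 12 libraries, and diamonds the percentage of the 9903 genes with a peak in any library. The bars are lowest in zygote replicate 1 (37.5%) and highest in blastocyst replicate 1 (87.5%), and each stands above its diamond.

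In pooled samples, fewer cells of a type and less RNA per cell cannot be told apart, and without RNA levels a gene with no peak may have had unmethylated RNA or little RNA. Among the 32 genes, 661 peaks were counted over the 12 libraries, with 44.5 ± 9.69 (SD, n = 6) per maternal and 65.7 ± 19.9 (SD, n = 6) per embryonic library. A marked methyltransferase gene carried 2.33 to 3.38 peaks per library, against 1.55 to 1.81 for a marked gene of the whole table. The methyltransferase genes were also longer, with a median gene body of 42206 bp against 28665 bp. More maternal than embryonic libraries were marked for 7 of the 32 genes, fewer for 13, and equally many for 12. Over all genes with a peak these counts were 3651, 4889 and 1363.

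**Figure D2:**
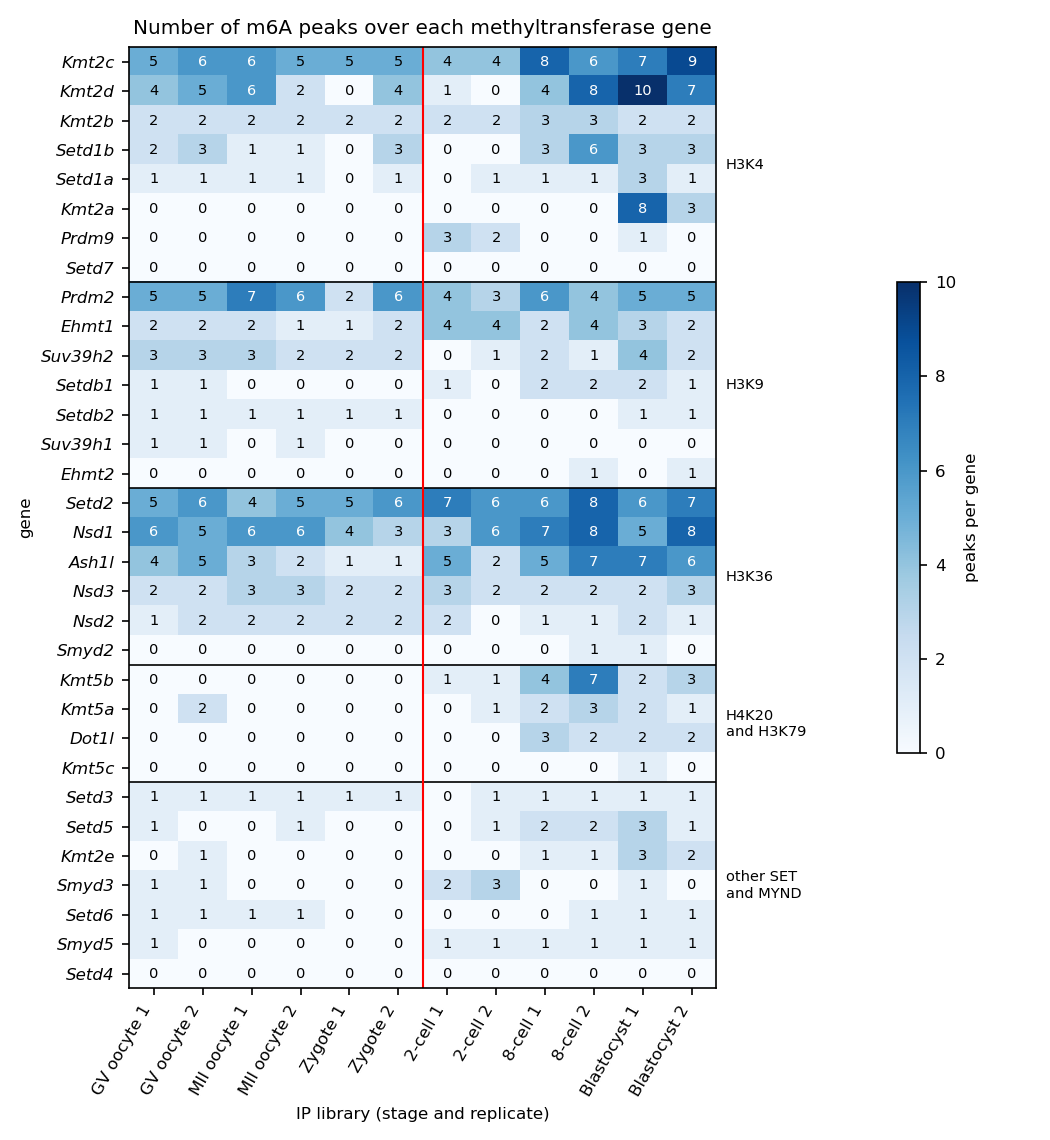
Each cell gives the number of m6A peaks over a gene (rows, grouped by the histone lysine methylated) in a library (columns), and the red line divides the maternal from the embryonic phase. Setd2, Nsd1 and Kmt2c have peaks throughout, while Kmt5b, Dot1l and Kmt2a have peaks only to the right of the line.

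The 8 genes marked in all 12 libraries were Kmt2b, Kmt2c, Setd2, Ehmt1, Nsd1, Nsd3, Ash1l and Prdm2. They made up 25% of the list, where 8.36% of the 9903 genes with a peak were marked throughout. In all, 14 of 142 distinct peak regions over methyltransferase genes (peaks of any library merged where they overlap) were present in every library, or 9.86%, against 3.04% of 22629 regions over protein-coding genes. Regions seen in a single library made up 38.7% and 35.6%. Setd4 and Setd7 had no peak in any library. For Setd4, 11 peaks in 10 libraries lay within 5000 bp beyond its 3′ end, the nearest at 29 bp, and 3 peaks in 3 libraries before its 5′ end, the nearest at 4940 bp.

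The 3 tests between the phases called few of these genes. Genes marked in 5 to 7 libraries can reach the threshold in Fisher's exact test, and 8 of the 32 were of this kind. The test called 2 of them higher in the embryonic phase, Kmt5b and Smyd5, and 0 higher in the maternal phase. Among the 2310 genes tested, it called 21.6% embryonic and 28% maternal, so 2 of 8 is near the background. The unadjusted p was at most 0.05 for the same 2 of 8, against 49.6%. The exact permutation test on peak number called 1 of 26 genes tested, Kmt5b, against 6.33% embryonic and 9.74% maternal calls among 5185 genes. An unadjusted p of at most 0.05 was reached by 5 of the 26 (32.5% of the 5185), namely Kmt5b, Smyd5, Setd2, Ehmt1 and Ash1l, all with more embryonic peaks. Fisher's exact test on single regions called 4 of 17 regions tested, 3 embryonic (in Kmt5b, Setd2 and Smyd5) and 1 maternal (in Setdb2), against 17.2% and 32.2% of 3549 regions.

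The most uneven group by peak number was that of H4K20 and H3K79. Its 4 genes carried 2 peaks in all maternal libraries together and 37 in the embryonic ones. The number of its genes marked per library was 0 or 1 in the maternal phase and 1 to 4 in the embryonic phase. The groups are small, and no test was made over them.

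Kmt5b (also Suv420h1), which with Kmt5c adds the second and the third methyl group to H4K20, had 0 peaks in each of the 6 maternal libraries. After that, 2-cell embryos gave 1 and 1 peaks, 8-cell embryos 4 and 7, and blastocysts 2 and 3. The phases did not overlap, and the most peaks were seen in 8-cell embryos. The mean was 0 in the maternal phase and 3 ± 2.28 (SD, n = 6) in the embryonic phase (exact permutation test p = 0.00216, the smallest these 12 libraries allow, adjusted p = 0.0162). Marking in all 6 embryonic and no maternal library was seen for 2.47% of the 9903 genes. By marked libraries, 0 of 6 against 6 of 6, Fisher's exact test gave p = 0.00216 and an adjusted p of 0.00963. All 18 peaks lay in the last 25% of the 50942 bp gene. Its main region, chr19:3814088-3816215 on mm10, was centred at 93.8% of the gene from the 5′ end, 3152 bp before the 3′ end, and was present in the 6 embryonic libraries alone (Fisher's exact test, adjusted p = 0.0102). The 2-cell stage showed this region as 1 broad peak of 1434 bp in replicate 1 and 1532 bp in replicate 2, whereas the 8-cell and blastocyst lists divided it into 2 to 4 peaks. The higher peak count after the 2-cell stage is therefore in part a count of shorter peaks within 1 stretch. In replicate 1 of the 2-cell stage the authors' fold enrichment for the broad peak was 17.2, which placed it at the 92.3 percentile of its own list.

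Kmt5a, the enzyme that places the first methyl group on H4K20, had peaks in 5 embryonic libraries and in 1 maternal one. GV replicate 2 held 2 peaks and the other maternal libraries 0. Later, 2-cell embryos gave 0 and 1 peaks, 8-cell embryos 2 and 3, and blastocysts 2 and 1. The phases overlapped, and the peak number test did not call it (exact permutation p = 0.0996, adjusted p = 0.223). All 11 peaks lay within 2000 bp of the 3′ end, and the region present in most libraries was chr5:124460308-124460786. Kmt5c had a single peak, in blastocyst replicate 1.

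Dot1l, the H3K79 methyltransferase, had 0 peaks in all maternal and both 2-cell libraries. Its peaks numbered 3 and 2 in 8-cell embryos and 2 and 2 in blastocysts. With 4 of 6 embryonic libraries marked, Fisher's exact test cannot pass the threshold, and the peak number test gave an exact permutation p of 0.0606 (adjusted p = 0.151). The same 2 regions recurred in all 4 late libraries, at 89.4% and 95.7% of the gene from its 5′ end. Marking in all 4 of these libraries and no other was seen for 2.22% of the 9903 genes. Leaving out 2-cell replicate 1, which marked neither Dot1l nor Kmt5a, brought both among the calls by marked libraries, 4 of 9 tested. Over all genes tested in that fit, 26.2% were called maternal and 23.5% embryonic. Dot1l was also called without 2-cell replicate 2, and Kmt5a without GV replicate 2.

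**Figure D3:**
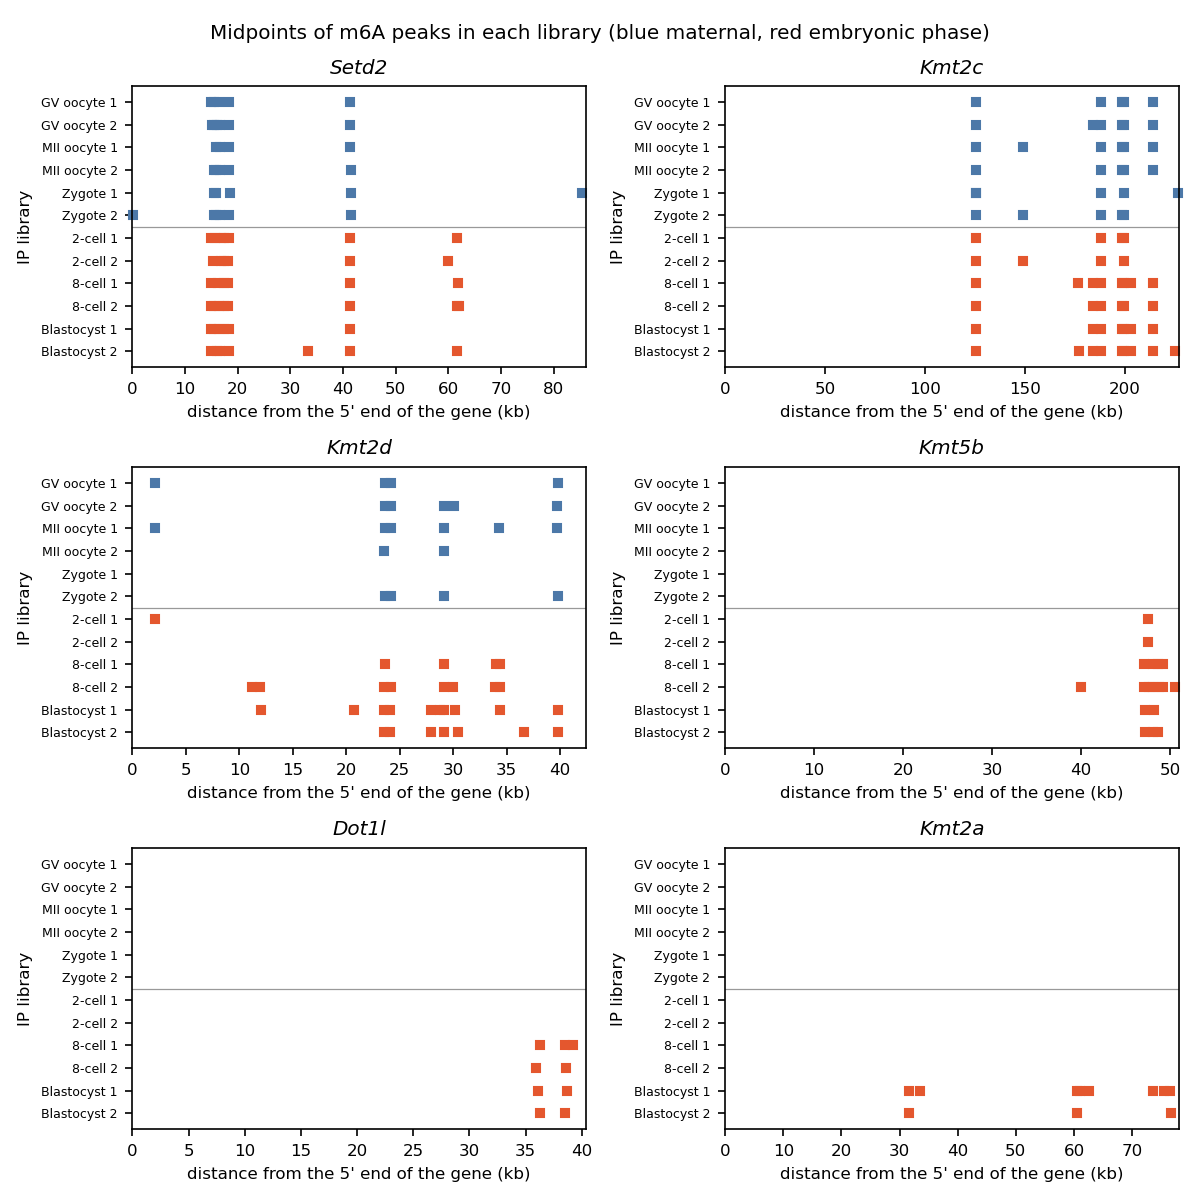
Each square is the midpoint of 1 m6A peak, at its distance from the 5′ end of the gene in kb (horizontal axis) and in its library (vertical axis), for 6 genes of known strand. The Setd2 peaks sit mostly upstream of the gene middle in every library, whereas all 18 Kmt5b and all 9 Dot1l peaks lie near the 3′ end and in embryonic libraries.

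The H3K4 group has 8 genes, the catalytic subunits of COMPASS-like complexes together with Setd7 and the meiotic enzyme Prdm9. Together they held 80 maternal and 121 embryonic peaks. None of the 8 could be tested by marked libraries, 7 were tested by peak number, and 0 were called by the exact permutation test (5 of all 26 genes had an unadjusted p of at most 0.05, none in this group). Kmt2c and Kmt2b were marked in every library. Kmt2c, which places the first methyl group at enhancers, ranked 16th among all genes with 70 peaks. It held 5 and 6 peaks in GV, 6 and 5 in MII, 5 and 5 in zygote, 4 and 4 in 2-cell, 8 and 6 in 8-cell, and 7 and 9 in blastocyst libraries. Both phases overlapped (5.33 ± 0.516 against 6.33 ± 2.07, SD, n = 6 each, exact permutation p = 0.364, adjusted p = 0.574). Regions present in all 12 libraries numbered 3, of which the lowest by position was chr5:25298999-25299470, and 54 of the 70 peaks were in the last 25% of the gene. Kmt2b, which acts at promoters in the oocyte, held 2 peaks in every library but the 8-cell ones, which held 3 and 3. Above the median score it was called maternal by peak number. The region shared by all libraries was chr7:30585919-30586961.

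Kmt2d, the paralogue of Kmt2c, was uneven between replicates. It held 4 and 5 peaks in GV, 6 and 2 in MII, 0 and 4 in zygote, 1 and 0 in 2-cell, 4 and 8 in 8-cell, and 10 and 7 in blastocyst libraries. The low values fell in 1 zygote and both 2-cell libraries, and the phases overlapped. Above the median fold of each list, Fisher's exact test on marked libraries called it embryonic. Its most frequent region was chr15:98849702-98850661, present in 9 libraries, and 13 of its 51 peaks were in the last 25%. Kmt2a, known from leukaemia as MLL, had peaks in the blastocyst libraries alone, 8 in replicate 1 and 3 in replicate 2. All other libraries held 0. Marking in both blastocyst libraries and no other was seen for 1.89% of the 9903 genes. The strongest peak, near the 3′ end at 98.1% of the gene, reached an authors' fold of 14.1 in replicate 1.

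Setd1a and Setd1b, the enzymes of the SET1 complexes, were marked in both phases. Setd1b held 2 and 3 peaks in GV, 1 and 1 in MII, 0 and 3 in zygote, 0 and 0 in 2-cell, 3 and 6 in 8-cell, and 3 and 3 in blastocyst libraries. It was thus unmarked in both 2-cell libraries and marked in both 8-cell libraries. Its most frequent region was chr5:123147797-123148107. Setd1a held 1 peak in most libraries, 0 in zygote replicate 1 and 2-cell replicate 1, and 3 in blastocyst replicate 1. Its usual region, chr7:127795530-127796369 at 81.6% of the gene, was present in 9 libraries. In blastocyst replicate 1 another peak of authors' fold 3.8 covered the start of the gene. It overlapped 125 bp of the promoter window, which is shown because peaks at a start were rare in these genes. The 300 bases are chr7:127777139-127777438 on the plus strand (RefSeq, GRCm38.p6), with the bases under the peak in capitals.

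Setd1a: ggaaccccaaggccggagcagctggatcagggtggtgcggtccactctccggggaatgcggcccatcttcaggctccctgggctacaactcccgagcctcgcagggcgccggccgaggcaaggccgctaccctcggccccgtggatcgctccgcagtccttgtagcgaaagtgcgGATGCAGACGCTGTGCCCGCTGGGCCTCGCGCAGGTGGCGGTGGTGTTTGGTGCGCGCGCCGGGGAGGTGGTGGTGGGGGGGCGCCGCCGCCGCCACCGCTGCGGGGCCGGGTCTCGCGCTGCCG

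Prdm9, which marks recombination sites in meiosis, had 0 peaks in every maternal library, 3 and 2 in 2-cell embryos, 0 and 0 in 8-cell embryos, and 1 and 0 in blastocysts. Both 2-cell libraries exceeded every other library. Marking of both 2-cell and no maternal libraries, whatever the later ones, was seen for 6.11% of the 9903 genes. The peaks common to both 2-cell replicates lay near both ends of the gene, at 1.33% and 1.34% and at 90.6% and 90.5% from the 5′ end.

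The H3K36 group was the most steadily marked. In each maternal library 5 of its 6 genes carried a peak, and in the embryonic libraries 4 to 6 did. Of the 6 genes, 4 were marked in all 12 libraries, and Smyd2 alone was marked in 2. The group also had the longest median gene body, 97339 bp against 31372 to 71200 bp in the other groups. The part of gene length was not tested. Setd2, the enzyme that trimethylates H3K36 during transcription elongation, ranked 14th among all genes with 71 peaks. It held 5 and 6 peaks in GV, 4 and 5 in MII, 5 and 6 in zygote, 7 and 6 in 2-cell, 6 and 8 in 8-cell, and 6 and 7 in blastocyst libraries. Embryonic libraries were higher, with an overlap at 6 peaks. The means were 5.17 ± 0.753 and 6.67 ± 0.816 (SD, n = 6 each), a difference that did not pass after adjustment (exact permutation p = 0.0216, adjusted p = 0.0793). With every list cut to the same number of peaks it passed.

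Setd2 peaks lay mostly toward the 5′ side, with 1 of 71 in the last 25% of the gene. Regions shared by all 12 libraries numbered 3, at 18.4%, 21.2% and 48% of the gene from the 5′ end, the first of them chr9:110547083-110549654. Between the first and the second lay a short region, chr9:110549748-110549969, present in 0 maternal and 5 embryonic libraries (Fisher's exact test p = 0.0152, adjusted p = 0.0307). It was missing in blastocyst replicate 2. This call was lost when peaks under the median score of all lists, or under the median fold of their own list, were left out. Zygote replicate 2 had a Setd2 peak of authors' fold 7.5 at the gene start, which overlapped 142 bp of the promoter window chr9:110532347-110532646 on the plus strand. That window is shown as the other gene start under a peak, again with the bases under the peak in capitals (RefSeq, GRCm38.p6).

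Setd2: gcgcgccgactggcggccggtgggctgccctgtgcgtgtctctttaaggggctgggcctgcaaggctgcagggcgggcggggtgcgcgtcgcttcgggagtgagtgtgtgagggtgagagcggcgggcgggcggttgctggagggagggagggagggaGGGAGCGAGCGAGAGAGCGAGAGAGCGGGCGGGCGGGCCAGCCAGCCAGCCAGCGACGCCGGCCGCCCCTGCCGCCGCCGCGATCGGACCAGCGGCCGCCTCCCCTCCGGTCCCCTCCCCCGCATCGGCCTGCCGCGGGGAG

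The motif GGACT, a common form of the sequence in which m6A is found, was searched on the sense strand only, as m6A lies on the transcript. Both windows begin upstream of the gene start (chr7:127777389 for Setd1a, chr9:110532500 for Setd2), and both peaks run past the window end. The search thus covers bases outside the gene and only part of each peak. GGACT occurs in neither window, and 26.1% of 32851 promoter windows of the same length hold it. Not every form of the sequence was searched, and the Setd2 window holds GGACC under its peak. The search therefore does not show that m6A sites are missing there.

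Nsd1, Nsd2 and Nsd3 dimethylate H3K36, and Ash1l does so at developmental genes. Nsd1, with 67 peaks, held 6 and 5 in GV, 6 and 6 in MII, 4 and 3 in zygote, 3 and 6 in 2-cell, 7 and 8 in 8-cell, and 5 and 8 in blastocyst libraries. Its first region shared by all libraries was chr13:55213346-55214067, with an authors' fold of 4.2 to 30.3. Nsd3 was even, with 2 or 3 peaks in each library and the shared region chr8:25640466-25641276. Nsd2 was marked in every library except 2-cell replicate 2, most often at chr5:33842998-33843635.

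Ash1l held 4 and 5 peaks in GV, 3 and 2 in MII, 1 and 1 in zygote, 5 and 2 in 2-cell, 5 and 7 in 8-cell, and 7 and 6 in blastocyst libraries. The zygote libraries were lowest, and the phases overlapped (2.67 ± 1.63 against 5.33 ± 1.86, SD, n = 6 each, exact permutation p = 0.0433, adjusted p = 0.139). Without 2-cell replicate 2 the difference was called. The region shared by all libraries was chr3:89007153-89007823. A region each of Ash1l (chr3:88983499-88983947), Nsd1 (chr13:55245424-55246123) and Setd1b (chr5:123158346-123158804) was present in both GV, both 8-cell and both blastocyst libraries and in no other. These 3 of 142 regions were picked out after their values were seen, and the same pattern occurred in 0.597% of the 22629 regions.

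The H3K9 group was balanced, with 67 maternal and 68 embryonic peaks over 7 genes. The Setdb2 and Suv39h2 regions among them also lie over another gene, as described below. Prdm2, a tumour suppressor of the PRDM family, held 5 and 5 peaks in GV, 7 and 6 in MII, 2 and 6 in zygote, 4 and 3 in 2-cell, 6 and 4 in 8-cell, and 5 and 5 in blastocyst libraries. Zygote replicate 1 was lowest, and the phases overlapped (exact permutation p = 0.561, adjusted p = 0.76). The region shared by all libraries, chr4:143133845-143136153, reaches the microRNA hairpin Mir7021 inside Prdm2. The MII replicate 1 peak covered 54 bases of this hairpin and the 2-cell replicate 2 peak 40. The hairpin, chr4:143136100-143136162 on the minus strand (RefSeq, GRCm38.p6), is shown with the bases under the MII peak in capitals, and it does not hold the motif either.

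Mir7021: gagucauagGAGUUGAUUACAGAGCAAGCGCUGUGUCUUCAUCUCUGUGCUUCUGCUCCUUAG

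Ehmt1, which with Ehmt2 forms the GLP and G9a dimer that dimethylates H3K9, was marked throughout. It held 2 and 2 peaks in GV, 2 and 1 in MII, 1 and 2 in zygote, 4 and 4 in 2-cell, 2 and 4 in 8-cell, and 3 and 2 in blastocyst libraries. The 2-cell libraries and 1 8-cell library were highest, and the phases overlapped at 2 peaks (1.67 ± 0.516 against 3.17 ± 0.983, SD, n = 6 each, exact permutation p = 0.0325, adjusted p = 0.11). The region shared by all libraries was chr2:24884317-24884870, at 27.2% of the gene. Ehmt2 itself had 1 peak in 8-cell replicate 2 and 1 in blastocyst replicate 2.

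Setdb2, an H3K9 methyltransferase, kept 1 peak in each of the 6 maternal libraries had 0 at the 2-cell and 8-cell stages, and had 1 and 1 in blastocysts. Marking in every maternal and no 2-cell or 8-cell library was seen for 3.55% of the 9903 genes. The maternal peaks were all in chr14:59409359-59409662, at 80.7% of the gene from the 5′ end, and none of the embryonic ones were (Fisher's exact test, 6 of 6 against 0 of 6, p = 0.00216, adjusted p = 0.0102). The blastocyst peaks lay elsewhere, at 55.8% of the gene in replicate 1 and at 24.5% in replicate 2. All of Setdb2 lies within Gm45935, another protein-coding gene model of the table, so its peaks cannot be assigned to 1 of the 2. The region call also ended when peaks under the median score or the median fold were left out. By marked libraries the gene Setdb2 was called maternal without blastocyst replicate 1 and also without blastocyst replicate 2. Over all genes tested in these 2 fits, 23.8% and 22.4% were called maternal and 18.7% and 20.3% embryonic.

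Setdb1, which silences retroelements with Trim28, held 1 and 1 peaks in GV, 0 in the MII and zygote libraries, 1 and 0 in 2-cell, 2 and 2 in 8-cell, and 2 and 1 in blastocyst libraries. It was marked in both GV and neither MII library, and its main region was chr3:95327226-95327903. Suv39h2, which trimethylates H3K9 in heterochromatin, held 3 and 3 peaks in GV, 3 and 2 in MII, 2 and 2 in zygote, 0 and 1 in 2-cell, 2 and 1 in 8-cell, and 4 and 2 in blastocyst libraries. The phases overlapped, and its main region was chr2:3464274-3464909. Above the median score of all lists Suv39h2 was called maternal by marked libraries, as were 2 of its regions. In that setting 41.9% of all genes tested were called maternal and 11.2% embryonic, and 44% and 10.1% of all regions tested. Each of the 4 Suv39h2 regions also lies over Dclre1c, so these regions cannot be assigned to 1 of the 2 genes. Suv39h1, its paralogue on the X chromosome, was marked in 3 maternal libraries, both GV and MII replicate 2, and in no embryonic one. All 3 of its peaks lay at 14.6% to 15.4% of the gene.

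The other SET and MYND genes act on histones in part only, since Setd3 methylates actin and several others lack a settled histone substrate. Smyd5 had 1 peak in GV replicate 1, 0 in the other 5 maternal libraries and 1 in each embryonic library. All 7 peaks lay within chr6:85445353-85446367, centred 570 bp before the 3′ end. Within 5000 bp beyond the 3′ end lay 5 more peaks in 5 libraries, the nearest at 398 bp. Before the 5′ end lay 5 in 3 libraries, the nearest at 2096 bp. The genes at these flanking peaks were Noto and Pradc1. By marked libraries Smyd5 was called (1 of 6 against 6 of 6, Fisher's exact test p = 0.0152, adjusted p = 0.0306), and by peak number it was not (exact permutation p = 0.0152, adjusted p = 0.0589). By peak number it was called with equal list lengths, without GV replicate 1 and without 2-cell replicate 1. The GV peak was weak within its list, at the 1.52 percentile, against 52.9 to 89.8 for the embryonic peaks. Without peaks under the median score, or under the median fold, too few libraries were marked for a call (Fisher's exact test p = 0.0606).

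Setd3 had 1 peak in every library but 2-cell replicate 1, always in chr12:108107260-108107793. Setd6, which methylates a subunit of NF-kappaB, held 1 peak in each GV and MII library, 0 in the zygote and 2-cell libraries, 0 and 1 in 8-cell, and 1 and 1 in blastocyst libraries. Its peaks all lay in chr8:95718339-95718901. Setd5, a SET domain gene linked to neurodevelopment, was marked in 5 embryonic libraries against 2 maternal ones. Its usual place was chr6:113150835-113151867, and it was not called. With equal list lengths it was called embryonic by marked libraries, and its region was called without GV replicate 1 and without 2-cell replicate 1.

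Kmt2e held 0 and 1 peaks in GV, 0 in the MII, zygote and 2-cell libraries, 1 and 1 in 8-cell, and 3 and 2 in blastocyst libraries. Smyd3, the longest of the 32 genes at 566094 bp, held 1 and 1 peaks in GV, 0 in the MII and zygote libraries, 2 and 3 in 2-cell, 0 and 0 in 8-cell, and 1 and 0 in blastocyst libraries. The GV peaks of Smyd3 shared 1 place, and the 2-cell peaks lay at others, of which 1 was common to both replicates.

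Between consecutive stages a gene was called gained when both later and neither earlier library marked it, and lost the other way round, without a test since 2 libraries against 2 cannot give a p below 0.333. From zygote to 2-cell, 4 of 32 genes were gained (Smyd3, Smyd5, Prdm9 and Kmt5b), against 9.88% of the 9903 genes, and Setdb2 was lost, against 7.94%. From 2-cell to 8-cell, Kmt2e, Setd1b and Dot1l were gained (10.9% of all) and Smyd3 and Prdm9 lost (5.66%). From 8-cell to blastocyst, Kmt2a and Setdb2 were gained (4.79%) and 0 lost (4.29%). Before fertilization and up to the zygote, 0 genes were gained, against 3.33% from GV to MII and 0.666% from MII to zygote. Smyd3 and Setdb1 were lost from GV to MII (8.74%), and Setd6 from MII to zygote (2.53%). The gains thus summed to 9 and the losses to 6. Leaving out 2-cell replicate 1 or 2 gave 14 or 15 gains, but the rule is then easier to meet, with only 1 library at that stage.

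Replicates differed most at the 2-cell stage. There 12 genes were marked in both libraries and 20 in either. The counts were 19 and 23 for GV, 16 and 18 for MII, 12 and 15 for zygotes, 21 and 24 for 8-cell embryos, and 24 and 29 for blastocysts.

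Fewer peaks lay near a gene end in the methyltransferase genes, which are also longer, than over all genes, and this was not tested. Among genes of at least 10000 bp, 11.3% of 653 peaks had their midpoint within 2000 bp of a gene end, against 28.9% of 76079 peaks over all protein-coding genes. Of these genes, 19 had a known strand, and 50.7% of their 367 peaks lay in the last 25% of the gene, against 57.5%, and 17.2% in the first 25%, against 14%. Leaving out Setd2 turned both orders: 62.5% of 296 peaks lay in the last 25% and 4.05% in the first 25%. The share within 2000 bp of a gene end was then 12.4%. The genes were not alike in this. All peaks of Kmt5b, Dot1l, Kmt5a, Setd3 and Smyd5 were in the last 25%, while Setd2 had 1 of 71 and Suv39h1 0 of 3. The table gives no exons, so peaks were not placed in exons, introns or untranslated regions.

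**Figure D4:**
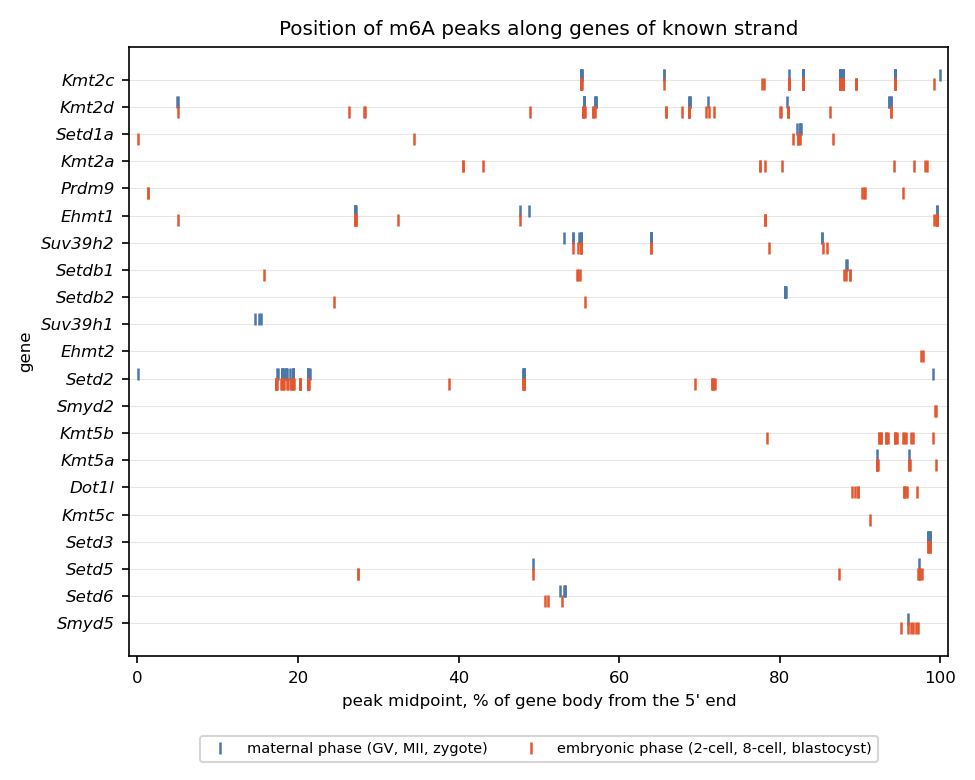
Each tick is the midpoint of 1 peak along the gene, in percent of the gene body from the 5′ end, for the genes of known strand that carry a peak, with blue ticks for maternal and red for embryonic libraries. Kmt5b, Dot1l and Smyd5 have ticks near the 3′ end, and Setd2 has most of its ticks at about 18.4%, 21.2% and 48%.

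Genes of related pathways were counted from lists chosen as background. Over all 2310 genes tested, 28% were called maternal and 21.6% embryonic. Of 14 subunits of COMPASS and KMT2 complexes, all 14 had a peak, 3 could be tested by marked libraries and 0 were called by Fisher's exact test. Ash2l had 6 maternal and 2 embryonic libraries marked, and Wdr82 had 0 and 4. Of 12 partners of H3K9 methylation, 1 was tested and called, Cbx1, which encodes a heterochromatin protein (0 against 6, Fisher's exact test adjusted p = 0.00963). Trim28, the corepressor that recruits Setdb1, had no peak. Of 11 further SET domain genes in the table, 3 of 3 tested were called maternal, Prdm16 (6 against 0), Prdm1 (6 against 1) and Setmar (5 against 0). Of 9 arginine methyltransferases, 4 had a peak and 2 of 2 tested were called embryonic, Prmt6 and Prmt9 (0 against 5 each, Fisher's exact test adjusted p = 0.0306).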

How the data were processed

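Peak lists of 12 immunoprecipitated libraries were used. The submitters' processing notes name MACS2 2.1.2, HISAT2 2.1.0, bedtools 2.28.0, SAMtools 1.9, cutadapt 1.8.1, FastQC 0.11.8, deepTools 3.2.0 and mm10, without settings. Peaks were called by the authors for each library, against the input of its own stage and replicate, judging by the names of the deposited peaks. The deposited lists give a score, a fold enrichment (a ratio), and −log10 p and q values for each summit. In 99.9993% of lines the score equals 10 times −log10 q without decimals. The authors' fold is used only to describe a peak within its own list.

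The 143579 summits were collapsed by interval to 113764 peaks of 200 to 3754 bp. Depth is unknown and may affect list length. Peaks were overlapped (1 bp) with RefSeq gene bodies of GRCm38.p6. Strand was taken from RefSeq promoter windows, 30 of which matched 23 of the 32 genes.

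Marked libraries and regions were compared with a two-sided Fisher's exact test, 6 against 6, for totals of 5 to 7. Peak numbers were compared with an exact two-sided permutation test over 924 splits for genes with at least 6 peaks. Adjustment was Benjamini-Hochberg over all genes or regions tested, at 0.05. The scripts were tested on simulated data. Python 3.11.15, numpy 2.4.6, pandas 2.3.3 and scipy 1.17.1 were used.

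The 32 genes and the other lists were chosen with earlier results of these data known. Genes called, with a called region, or gained or lost at a step are given for every library; regions are given where called, and for each gene with 6 or more marked libraries the most frequent one. Other lists name up to 4 genes by difference in marked libraries. Further per-library values, and Trim28, were added after values were seen. Alternatives were equal list lengths, filters on score and fold, other overlap and end windows, a replicate block, and each library left out. Alternatives with only the peaks that touch no other gene, and without Setd2 for peak positions, were chosen after seeing the data.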

Additional observations from a re-analysis of the deposited data

Results flagged for a closer look

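In 8 of 52 sets of 6 values examined, 1 of the 6 libraries stood apart from the other 5, by Dixon's criterion for 6 values. The sets were the peak numbers of each gene that varied within a phase, and the totals of marked genes and of peaks per library. All 8 were peak numbers of single genes. About 1 in 20 such groups is expected to do so by chance, and small whole numbers with ties meet the criterion easily. GV replicate 2 held 1 Kmt2e peak and 2 Kmt5a peaks, where the other maternal libraries held 0. GV replicate 1 held 1 Smyd5 peak, where the others held 0, and 1 Nsd2 peak, where the others held 2. Zygote replicate 1, the shortest list, held 0 Setd1a peaks, where the others held 1. Among embryonic libraries, blastocyst replicate 1 held 1 Kmt5c peak against 0 and 3 Setd1a peaks against 0 or 1, and 2-cell replicate 1 held 0 Setd3 peaks against 1.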

How the results depend on the processing

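Kmt5b was called by each of the 3 tests under every alternative run. By peak number, 3 of 24 genes were called at equal list lengths, all embryonic (8.13% of all genes), and 4 of 16 with peaks at or above the median score (Kmt2b, Nsd2 and Suv39h2 maternal, Kmt5b embryonic; 26.2% and 5.44% of all genes), against 1 in the main analysis. Called regions were 7 with equal list lengths and 1 above the median fold, against 4, and losses over the steps fell to 3 above the median score, against 6. The share of peaks near a gene end was 5.97% within 1000 bp, against 11.3%; for all genes it was 15.7%. With Setd2 left out, chosen after seeing the data, it was 12.4%. Leaving out 1 library gave 2 to 4 genes called by marked libraries, 1 to 3 by peak number, 4 to 8 regions, 9 to 15 gains, 6 to 9 losses, and a maternal minus embryonic difference in genes marked per library of -5.83 to -3.23 (main -4.5). Above the median score this difference was -0.833. Calls by marked libraries rose to 4 of 9 without 2-cell replicate 1 (26.2% maternal and 23.5% embryonic over all genes tested). Calls by peak number rose to 2 of 26 without GV replicate 1 (8.85% maternal and 6.36% embryonic over all genes tested). They were 3 of 25 without 2-cell replicate 1 (17.6% and 13.5%) and 2 of 24 without 2-cell replicate 2 (11.4% and 6.75%). Called regions rose to 8 of 32 without GV replicate 1 and 7 of 31 without GV replicate 2. They rose to 8 of 28 and 8 of 30 without 2-cell replicate 1 and 2, and to 7 of 27 without blastocyst replicate 1. Over all regions tested, the maternal shares were, in this order, 25.1%, 24.7%, 26.7%, 26.8% and 25.2%. The embryonic shares were 13.4%, 14.2%, 20.3%, 18.2% and 14.9%. Without a library more regions were tested (27 to 32 against 17 in these fits), since other totals can then reach the threshold. A stage left with 1 library also meets the rule for gains and losses more easily. The cause of the other changes was not tested. The Setdb2 region was gone with single-gene peaks, and the Setd2 region above the median fold. With the replicate block the calls were 2 genes, 1 by peak number and 4 regions, as without it. Replicates of the same number did not deviate together across stages. Differences in marking between replicate 1 and replicate 2 of a stage were correlated with those of another stage. The correlation was between -0.165 (MII against zygote) and 0.025 (GV against zygote) over 15 stage pairs. Pairing across unlike replicate numbers was not tested. Depth is unknown, so a missing peak may be one below detection.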
